A study of Mus musculus with 13 samples.

Results

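The helicases that unwind G-quadruplexes (G4) were examined as 10 genes of CGR8 mouse embryonic stem (ES) cells: Brip1, Rtel1, Ddx11, Blm, Wrn, Pif1, Dna2, Dhx36, Dhx9 and Atrx. The genes were chosen by symbol, each matched 1 entry of the RNA-seq count table of 24079 genes, and all 10 were among the 13972 genes expressed well enough to be tested. All cells, controls included, were asynchronous, grew on gelatin with LIF and serum and received 0.5% DMSO for 48 h. The PhenDC3 group received 10 μM of this bisquinolinium ligand, which binds and stabilises folded G4, over the same time. RNA-seq covered 3 control and 3 PhenDC3 samples, and SNS-seq, which maps replication origins from short RNA-primed nascent strands, covered 3 control and 2 PhenDC3 samples. Only 1 cell line was used, and the labels do not say whether replicates were separate cultures. The study's methods name the SNS-seq controls as biological replicates and say nothing of the kind for RNA-seq in the sources used here, so RNA-seq p-values measure the spread between these samples, which may be technical.

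A G4 is a 4-stranded fold of G-rich DNA or RNA in which stacked layers of guanines are held by potassium ions. It can stall a replication fork or a polymerase, and cells use helicases that bind the fold and pull it apart. Iron-sulphur helicases, RecQ helicases, the Pif1 and Dna2 enzymes and DEAH-box helicases have this activity, whereas Atrx, a chromatin remodeller that loads histone H3.3 at repeats, is known for restricting G4 at such sites rather than as a classical helicase. A ligand such as PhenDC3 makes the fold harder to unwind, and the expression of these genes under the ligand is what the RNA-seq comparison addresses.

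None of the 10 genes passed the unpaired test between PhenDC3 and control (edgeR quasi-likelihood test, Benjamini-Hochberg adjusted p of at most 0.05 over all genes tested). Over all genes, 18.0% were called higher and 18.7% lower with PhenDC3. At an unadjusted p under 0.05, 2 helicase genes were higher (Dhx9 and Atrx) and 3 were lower (Brip1, Ddx11 and Pif1). Of all 13972 genes tested, 3256 were higher and 3304 lower at this unadjusted threshold. DESeq2 on the same counts called Dhx9 and Atrx higher and Brip1 lower, where it called 19.1% of all genes higher and 19.8% lower. With a replicate block, which treats same-numbered samples as matched, edgeR called Dhx9 and Atrx higher. It called 5 genes lower (Brip1, Rtel1, Ddx11, Wrn and Pif1), in a fit that called 3797 of all genes higher and 3692 lower. Whether the samples were matched is not known, as described in the last section. The samples of the 2 groups did not overlap in 6 of the 10 genes, beside 50.6% of all genes tested. Every PhenDC3 sample lay above every control in Dhx9 and Atrx, and below every control in Brip1, Rtel1, Ddx11 and Pif1. The median log2 fold change of the 10 genes was −0.14, beside 0.01 over all genes tested.

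**Figure D1:**
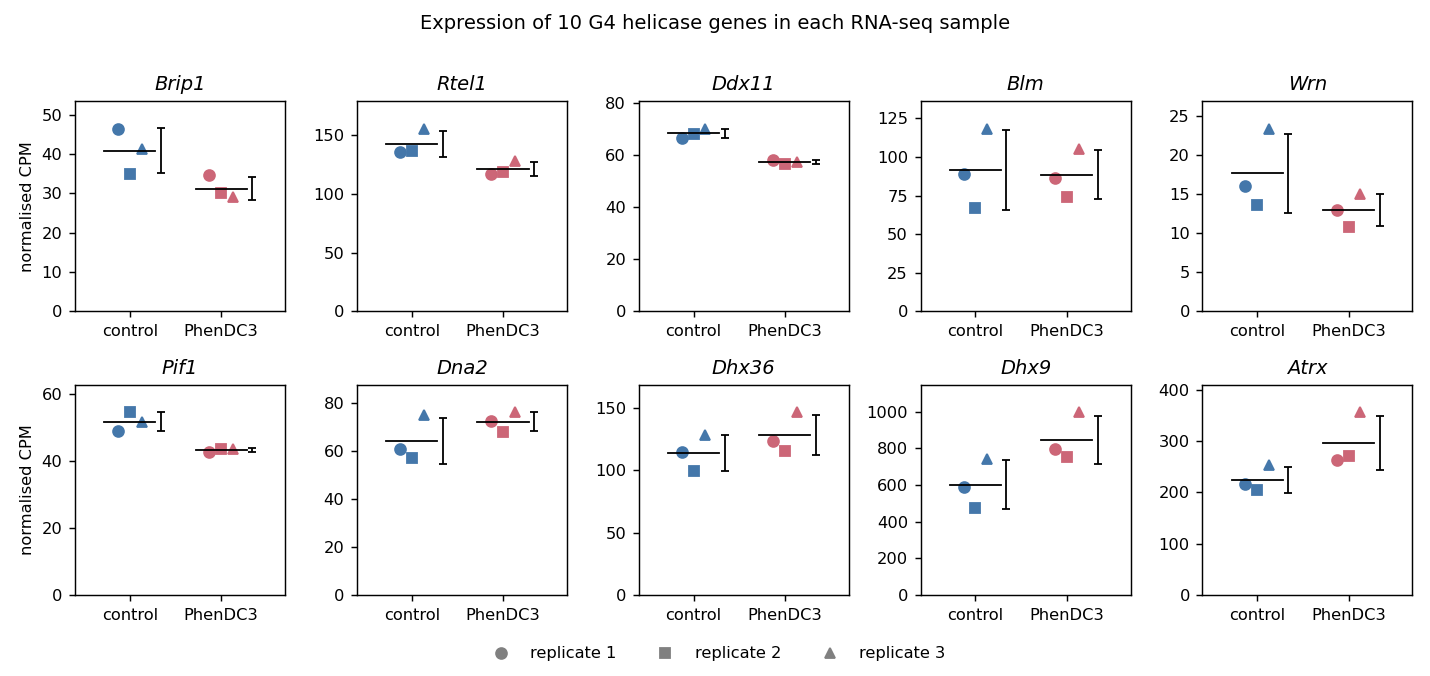
Normalised CPM (y axis, from 0, own scale in each panel) of the 10 helicase genes in each control and PhenDC3 sample. Symbols are replicates, horizontal lines are means and bars beside them are SD (n = 3). PhenDC3 samples lay above all controls in Dhx9 and Atrx, below all controls in Brip1, Rtel1, Ddx11 and Pif1, and overlapped the controls in Blm, Wrn, Dna2 and Dhx36.

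The libraries held 22232014 to 29486502 counts, and the helicase genes together took 0.119% to 0.153% of the raw counts in controls and 0.165% to 0.203% with PhenDC3. After normalisation their summed level overlapped, at 1209 to 1658 CPM in controls and 1539 to 1952 CPM with PhenDC3 (CPM, read counts scaled to library sizes normalised by relative log expression). Of the 10 genes, 4 had a positive log2 fold change and 6 a negative one. The 8 ES cell markers examined, among them Pou5f1, Sox2, Nanog and Klf4, were expressed in every sample, and 2 of them were called higher (Nanog and Klf4) and 3 lower (Utf1, Tdgf1 and Pou5f1) with PhenDC3. Markers of other cell types were called higher for 5 genes and lower for 2 of 12 tested, beside the 18.0% and 18.7% of all genes. The summed level of that list was 50.6 to 63.1 CPM in controls and 86.8 to 97.8 CPM with PhenDC3. In bulk RNA, fewer cells of a type and less RNA per cell cannot be told apart. The ribosomal precursor Rn45s took 2.55% to 5.70% of control counts and 0.172% to 1.43% of PhenDC3 counts. Log2 fold changes also moved with the length of a gene's exons, with 5 length classes of nearly equal size running from a median of −0.25 in the shortest class (up to 1.689 kb) to 0.26 in the longest (from 5.128 kb). The helicase genes lay in the longer 2 classes, whose medians were 0.10 and 0.26, with 3.763 to 10.244 kb of exon. The part of these shifts in the values below was not tested, apart from a fit with sample offsets that follow exon length, added after the data had been seen.

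The DEAH-box helicase Dhx9 (chr1:153455756-153487688, mm10, minus strand), also known as RNA helicase A, opens RNA and DNA duplexes, R-loops and G4. It gave 587, 475 and 742 CPM in the controls and 794, 752 and 996 CPM with PhenDC3. The groups did not overlap, but control replicate 3 lay close to PhenDC3 replicate 2. The means were 601 ± 134 CPM and 847 ± 130 CPM (SD, n = 3 each), a log2 fold change of 0.49 ± 0.18 (SE) with an edgeR adjusted p of 0.0554. The 95% interval ran from a change of 6.68% to 86.0%. Without control replicate 3 the log2 fold change was 0.67 and the gene was called, with an edgeR adjusted p of 0.01293, and DESeq2 called it over all samples with an adjusted p of 0.02684. Leaving out any other library gave no call, with the lowest log2 fold changes at 0.34 without control replicate 2 (edgeR adjusted p of 0.1418) and 0.36 without PhenDC3 replicate 3 (0.1845).

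Atrx (chrX:105797615-105929372, minus strand) gave 216, 204 and 253 CPM in the controls and 262, 270 and 356 CPM with PhenDC3. PhenDC3 replicate 3 was the highest sample, and the other two PhenDC3 samples lay just above the highest control. PhenDC3 over control gave a log2 fold change of 0.40 ± 0.15 (SE), with a 95% interval of 0.07 to 0.74 and an edgeR adjusted p of 0.06159. DESeq2 called the gene higher (adjusted p of 0.03882), as did edgeR without control replicate 3, with a log2 fold change of 0.49 and an adjusted p of 0.03493. Without PhenDC3 replicate 3 the log2 fold change was 0.25 (edgeR adjusted p of 0.2259), and leaving out any other library gave no call. Atrx has the longest exons of the 10 genes, and with the length-adjusted offsets its log2 fold change was 0.11, with an edgeR adjusted p of 0.4454. Its exons share 577 bases with the predicted gene Gm14853 on the same strand, which is not in the count table.

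Dhx36 (chr3:62468015-62507034, minus strand), the DEAH-box helicase with the best known specificity for parallel G4 in both DNA and RNA, showed a smaller difference. Its controls gave 114, 99.4 and 128 CPM and its PhenDC3 samples 123, 115 and 146 CPM, so that the groups overlapped, with PhenDC3 replicate 3 above all controls and control replicate 2 below all PhenDC3 samples. The log2 fold change of 0.17 ± 0.14 (SE) had an edgeR adjusted p of 0.3636 and a 95% interval from −9.28% to 39.1%. It was 0.06 without PhenDC3 replicate 3, 0.07 without control replicate 2 and 0.25 without control replicate 3. Dhx9 had 4.78 to 5.79 times the CPM of Dhx36 in the controls, beside 6.44 to 6.81 times with PhenDC3. The groups did not overlap in this ratio, but the pair was chosen by hand and was not tested. Among single genes tested, 50.6% did not overlap either.

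Brip1, Rtel1 and Ddx11 are iron-sulphur helicases of 1 family. Brip1 (chr11:86058136-86201215, minus strand), also named Fancj, binds Brca1 and resolves G4 ahead of the fork. It gave 46.4, 35.0 and 41.2 CPM in controls and 34.5, 30.1 and 29.0 CPM with PhenDC3. The lowest control and the highest PhenDC3 sample were nearly equal. Its log2 fold change was −0.39 ± 0.14 (SE), with an edgeR adjusted p of 0.05145, close to the threshold of 0.05, and a 95% interval from −38.4% to −5.40%. It was called lower by DESeq2 (adjusted p of 0.04024), and by edgeR with TMM normalisation (adjusted p of 0.04436) or without control replicate 2 (log2 fold change of −0.49, adjusted p of 0.0232). It was not called with any other library left out, and the value nearest 0 was −0.29 without control replicate 1 (edgeR adjusted p of 0.1596).

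Rtel1 (chr2:181319711-181356616, plus strand), which takes apart telomeric loops and G4 at telomeres, gave 136, 136 and 156 CPM in controls and 117, 119 and 128 CPM with PhenDC3. Ddx11 (chr17:66123513-66152174, plus strand), a helicase tied to sister chromatid cohesion, gave 66.5, 68.1 and 70.0 CPM in controls and 58.1, 56.4 and 57.1 CPM with PhenDC3. Both genes were lower in every PhenDC3 sample, and Ddx11 was among the least variable of the 10, with a coefficient of variation of 2.60% in controls and 1.45% with PhenDC3. Rtel1 had a log2 fold change of −0.23 ± 0.11 (SE), with an edgeR adjusted p of 0.1218. That of Ddx11 was −0.25 ± 0.10 (SE), with an edgeR adjusted p of 0.0665 and a 95% interval from −27.8% to −2.49%. Neither gene was called here or by DESeq2, and both were called with the length-adjusted offsets described further on.

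The RecQ helicases Blm and Wrn, lost in Bloom and Werner syndromes, unwind G4 and recombination intermediates. Blm (chr7:80454993-80535148, minus strand) gave 89.1, 67.1 and 118 CPM in controls and 86.2, 74.1 and 105 CPM with PhenDC3. All PhenDC3 values of Blm lay within the control range. Its log2 fold change was −0.05 ± 0.21 (SE), and the 95% interval from −30.0% to 33.7% leaves room for a sizeable change either way (edgeR adjusted p of 0.8761). The sign turned to 0.17 without control replicate 3 and to 0.07 without PhenDC3 replicate 2. Wrn (chr8:33234372-33385543, minus strand) was the least expressed of the 10, at 16.1, 13.6 and 23.4 CPM in controls and 13.0, 10.9 and 15.1 CPM with PhenDC3. Control replicate 3 stood above the other 5 samples, and the groups overlapped. The log2 fold change was −0.44 ± 0.21 (SE), with an edgeR adjusted p of 0.1341, and it was −0.20 without control replicate 3. Within each sample Blm had 4.92 to 5.55 times the counts of Wrn in controls and 6.61 to 6.99 times with PhenDC3. The groups did not overlap in this ratio either, which was likewise chosen by hand and not tested.

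Pif1 (chr9:65587150-65595967, plus strand), a helicase that removes G4 and limits telomerase, gave 48.9, 54.4 and 51.6 CPM in controls and 42.7, 43.7 and 43.5 CPM with PhenDC3. The PhenDC3 samples were nearly equal and all lay below the lowest control. The log2 fold change was −0.25 ± 0.10 (SE), with an edgeR adjusted p of 0.07771 and a 95% interval from −28.4% to −1.77%. Dna2 (chr10:62946983-62974188, plus strand), a nuclease with a helicase domain that trims flaps and resected ends, gave 60.9, 57.0 and 75.2 CPM in controls and 72.6, 68.2 and 76.1 CPM with PhenDC3. Control replicate 3 lay among the PhenDC3 samples. The log2 fold change of 0.17 ± 0.13 (SE) had an edgeR adjusted p of 0.3328, and it was 0.08 without control replicate 2 and 0.29 without control replicate 3.

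The plot of fold changes sets the 3 fits side by side. With the length-adjusted offsets, 5 of the 10 genes were called lower and 0 higher by edgeR, where 19.0% of all genes were called lower and 17.3% higher. At an unadjusted p under 0.05 this fit had 1 helicase gene higher and 5 lower. The share of all genes at that unadjusted threshold is not given here, so this count has no background beside it. The genes called lower after adjustment were Wrn (log2 fold change of −0.65, adjusted p of 0.01277), Brip1 (−0.62, adjusted p of 0.006453), Rtel1 (−0.34, adjusted p of 0.01643), Ddx11 (−0.34, adjusted p of 0.01484) and Pif1 (−0.31, adjusted p of 0.03277). Dhx9 was the highest of the 10 in this fit at 0.38, with an edgeR adjusted p of 0.06064. Dhx36 moved from 0.17 to 0.03 and Blm from −0.05 to −0.18, neither of them called. Each of the 10 log2 fold changes was lower in this fit than without the offsets. This largely follows from the fit itself, since the offsets take out the length trend and all 10 genes lie in length classes with positive medians.

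**Figure D2:**
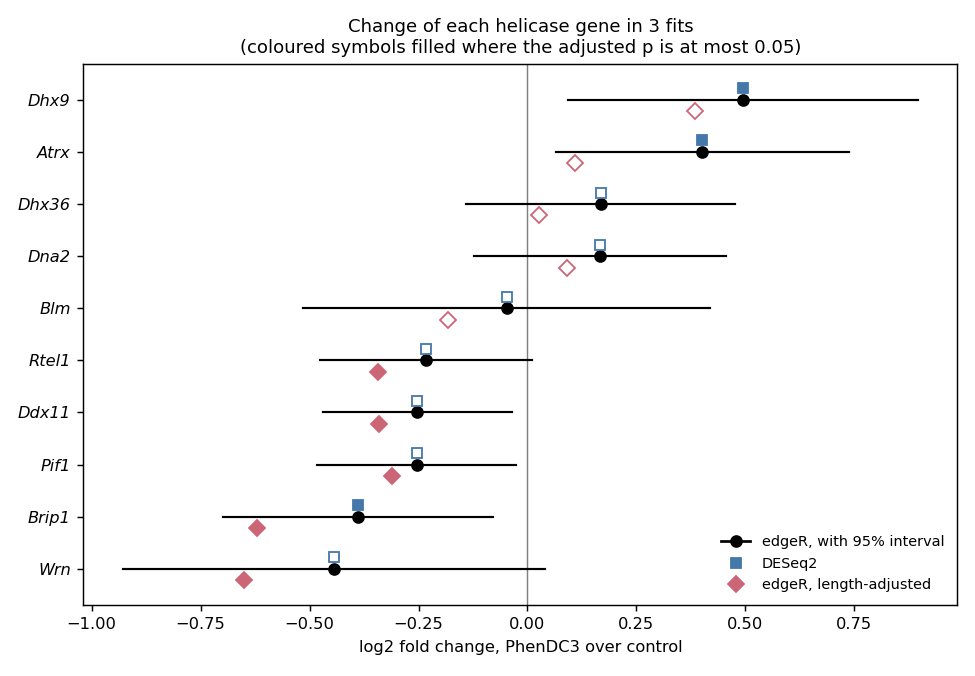
Log2 fold change of each helicase gene, PhenDC3 over control (x axis), by edgeR with its 95% interval (black), DESeq2 (squares) and edgeR with length-adjusted offsets (diamonds). Squares and diamonds are filled where the adjusted p is at most 0.05. DESeq2 called Dhx9, Atrx and Brip1, and the length-adjusted fit called Rtel1, Ddx11, Pif1, Brip1 and Wrn.

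Ratios between 2 helicase genes of a sample do not depend on library size. The CPM of Dhx9 were 12.6, 13.6 and 18.0 times those of Brip1 in controls and 23.0, 25.01 and 34.4 times with PhenDC3. For Atrx over Brip1 the controls gave ratios of 4.66, 5.83 and 6.14, and the PhenDC3 samples 7.59, 8.99 and 12.3. Both ratios were higher in every PhenDC3 sample than in any control. This had to follow from the single genes, since Dhx9 and Atrx lay above all controls and Brip1 below them, and adds nothing to them. These pairs were picked after their values had been seen and carry no test, and Dhx9 and Brip1 differ in exon length (4.613 and 6.933 kb). Replicates also moved together, with control replicate 3 the highest control in 8 of the 10 genes and PhenDC3 replicate 3 the highest PhenDC3 sample in 7. The same 2 libraries had the highest values of long against short genes in their groups, with a median deviation of the longest class over the shortest class of 0.04 in control replicate 3 and 0.40 in PhenDC3 replicate 3 (log2 scale), beside −0.23 and −0.45 in the other controls and 0.24 and 0.03 in the other PhenDC3 samples.

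Levels were compared between genes as CPM per kb of exon. Dhx9 stood alone at the top, at 103 to 161 CPM per kb in controls, 4.17 times the mean of the next gene. Rtel1 followed at 29.8 to 34.2 CPM per kb, above the range of all genes below it. Dhx36, Atrx, Blm, Ddx11, Dna2 and Pif1 came next in this order, and each overlapped its neighbour in the order, so that these neighbours did not differ beyond their spread. Brip1, at 5.04 to 6.69 CPM per kb, and Wrn, at 2.14 to 3.66 CPM per kb, were set apart at the bottom. The highest gene exceeded the lowest 47.0-fold in controls and 90.2-fold with PhenDC3. With PhenDC3, Atrx took the second place at 25.6 to 34.7 CPM per kb, and its range overlapped those of Rtel1 and Dhx36.

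**Figure D3:**
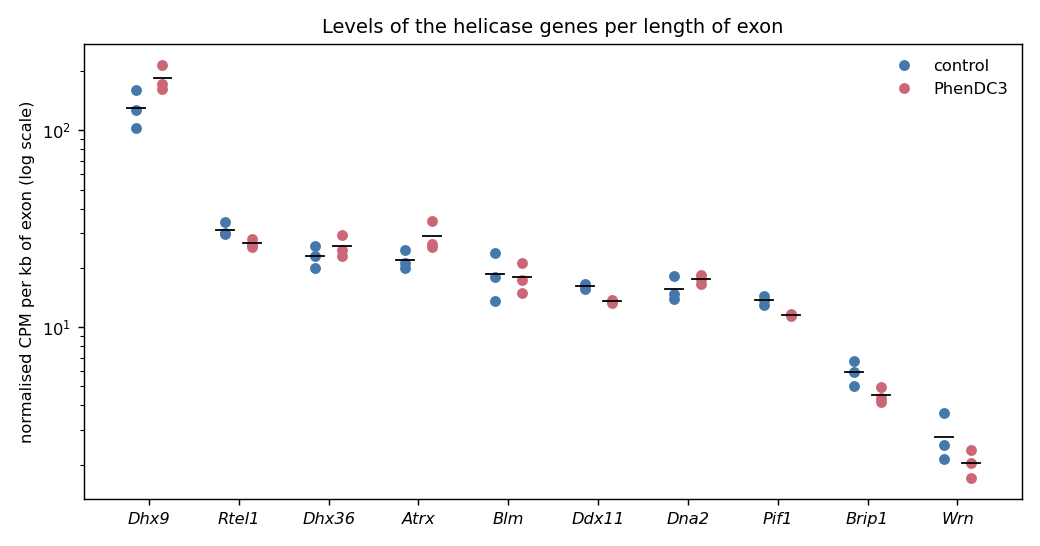
Normalised CPM per kb of exon (log axis) of the helicase genes in control and PhenDC3 samples, ordered by the control mean. Points are samples and lines are means (n = 3). Dhx9 lies at 103 to 161 CPM per kb in controls and Wrn at 2.14 to 3.66 CPM per kb.

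Next, 3 lists of genes with related work were set beside the G4 helicases. Of 23 other DNA and RNA helicases, 1 rose, 0 fell and 22 were not called, beside 18.0% of all genes higher and 18.7% lower, with a median log2 fold change of −0.07. DESeq2 gave the same counts, and 0 were lower at an unadjusted edgeR p under 0.05. The gene that rose was Fancm, the remodeller of stalled forks that anchors the Fanconi anaemia pathway, from 68.6, 62.2 and 86.5 CPM to 113, 115 and 130 CPM (log2 fold change of 0.72 ± 0.14 SE, edgeR adjusted p of 0.00443). The RecQ relatives Recql, Recql4 and Recql5 had log2 fold changes of −0.09, 0.04 and 0.11, none of them called. Without control replicate 3 the list held 2 genes called higher, and with length-adjusted offsets 4 called lower.

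Of 20 partners of the helicases, 7 fell, 1 rose and 12 were not called, beside the 18.7% and 18.0% of all genes. The median log2 fold change of this list was −0.22. Rev1, the translesion polymerase that acts at G4 with several of these helicases, rose from 64.0, 72.7 and 69.7 CPM to 119, 162 and 113 CPM (log2 fold change of 0.93 ± 0.15 SE, edgeR adjusted p of 0.001812). Every PhenDC3 sample of Rev1 lay above every control. Rmi2, a subunit of the Blm dissolvase, fell from 149, 111 and 117 CPM to 89.6, 86.2 and 63.5 CPM (log2 fold change of −0.65 ± 0.16 SE, edgeR adjusted p of 0.01384), whereas its partners Top3a and Rmi1 had log2 fold changes of 0.17 and 0.03 and were not called. Pcna, the replication clamp, fell by 0.61 on the log2 scale, with an edgeR adjusted p of 0.002519. Tipin, of the fork protection complex, fell by 0.58, with an edgeR adjusted p of 0.003243.

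Also called lower were the histone H3.3 gene H3f3a, Rpa2 of the single-strand binding complex and the flap nuclease Fen1. Of the partners of Atrx, H3f3a went from 345, 375 and 349 CPM to 254, 255 and 253 CPM (log2 fold change of −0.49, edgeR adjusted p of 0.005698), and the chaperone Daxx had a log2 fold change of −0.06 and was not called. Brca1, the partner of Brip1, had a log2 fold change of 0.26, with an edgeR adjusted p of 0.3311. Without PhenDC3 replicate 1 the number of partners called lower was 4, in a fit that called 1623 genes lower in place of 2617, and without control replicate 3 the number called higher was 3.

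Of 15 other proteins known to bind G4, 5 fell, 0 rose and 10 were not called, beside 18.7% of all genes lower and 18.0% higher. Slirp fell by 0.74 on the log2 scale and Cnbp, a zinc finger protein that opens G4 in RNA and DNA, fell by 0.63. Maz, a factor that binds G-rich promoters, fell by 0.59, and the transcription coactivator Sub1 fell by 0.53. Nucleolin (Ncl), which favours the folded form, fell from 3567, 3131 and 3499 CPM to 2533, 2278 and 2738 CPM (edgeR adjusted p of 0.01692). DESeq2 gave equal counts for this list, 0 were higher at an unadjusted edgeR p under 0.05, and 1 gene was called higher without control replicate 3. Among 12 proliferation genes 3 were called lower (Ccne1, Cdt1 and Mcm2) and 0 higher by edgeR, with 0 higher also by DESeq2 and at an unadjusted p under 0.05, beside the same shares of all genes. Mki67, the commonest marker of cycling cells, had a log2 fold change of 0.14 and was not called.

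**Figure D4:**
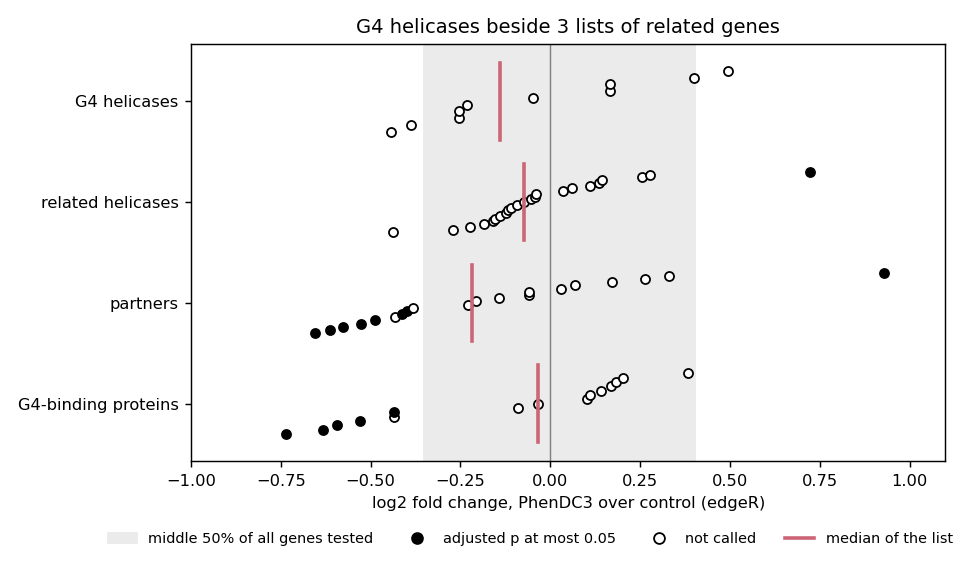
Log2 fold change of single genes, PhenDC3 over control (x axis), for the 10 G4 helicases and 3 lists of related genes. Filled points have an edgeR adjusted p of at most 0.05, red lines are list medians and the grey band holds the middle 50% of all genes tested. No helicase of the first list is filled, and the rightmost filled points are Fancm at 0.72 and Rev1 at 0.93.

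Predicted G4 were then located at the helicase genes themselves. G4Hunter (window of 25 bases, threshold of 2) found a G4 within 500 bp of a transcription start site (TSS) in 6 of the 10 genes, beside 55.9% of 13949 tested genes with a curated RefSeq TSS. The 6 genes were Brip1, Rtel1, Wrn, Pif1, Dhx36 and Dhx9. Atrx and Ddx11 had G4 further into the gene, among them those at 749 and 987 bp from the TSS, Dna2 had none within 2 kb at this threshold, and at Blm none was found with any of the settings tried. At most a single sequence per gene is given, since these folds are the substrate of the enzymes themselves and the peaks described next are set beside them. It is the G4 with the highest score within 500 bp of a TSS, or else within 2 kb. G4 with bases in an exon were passed over where another was found in that window. Runs of at least 3 G are in capitals, sequences are read along the G-rich strand, and positions are of GRCm38.p6 (mm10), with the centre given from the most upstream TSS (negative is upstream).
Brip1, intron, centre at 422 bp, chr11:86200760-86200782, plus strand: gagaaGGGGGGGGGGGGGGcGGG
Rtel1, centre at −105 bp, chr2:181319600-181319639, minus strand: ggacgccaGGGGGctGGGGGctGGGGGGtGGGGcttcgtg
Wrn, centre at −33 bp, chr8:33385548-33385572, minus strand: GGGGtggctgcggtGGGtGGGaGGG
Dhx36, exon, centre at 152 bp, chr3:62506824-62506848, minus strand: GGGGctcGGGcggcggcggaGGGGG
Dhx9, intron, centre at 235 bp, chr1:153487413-153487438, minus strand: GGGcGGGcgagcgtgtGGGGGaGGGG
Ddx11, intron, centre at 987 bp, chr17:66124489-66124525, plus strand: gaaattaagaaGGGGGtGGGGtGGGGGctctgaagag
Atrx, intron, centre at 749 bp, chrX:105928577-105928670, minus strand: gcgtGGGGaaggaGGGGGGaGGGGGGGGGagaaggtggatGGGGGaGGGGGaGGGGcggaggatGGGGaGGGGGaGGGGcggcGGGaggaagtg

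The highest window score of a single G4 was 3.20 at Atrx and 3.12 at Rtel1. In Wrn, Dhx36, Dhx9, Ddx11 and Atrx the G-rich strand of the sequence shown was the coding strand, and in Brip1 and Rtel1 the template strand. Other G4 of a gene did not always share this strand. At Brip1 the G4 with the highest score (2.84, at −167 bp) and one at 215 bp were on the coding strand. Wrn and Dhx36 also had G4 on the template strand. Both the genes that stood higher and those that stood lower with PhenDC3 had a G4 near the TSS, for example Dhx9 and Brip1. The count was 9 of 10 genes with a threshold of 1.5 (88.3% of all genes), 8 within 2 kb (81.3%) and 5 with Quadparser (59.9%).

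In SNS-seq, overlapping peaks of all lists of both conditions were merged into regions. A region was taken as a replication origin of a condition where it held peaks of at least 2 of its replicates, which need not overlap each other. The peak lists give fold enrichment over an RNase-treated library and no counts, and the depth of these samples is therefore unknown. An origin of the controls lay within 2 kb of a TSS in 4 of the 10 genes (Wrn, Dhx36, Dhx9 and Atrx), beside 59.5% of all genes, and an origin of PhenDC3 in 4 (Brip1, Wrn, Dhx36 and Dhx9), beside 38.0%. Origins at Wrn, Dhx36 and Dhx9 were thus found under both conditions. Leaving out control replicate 1, 2 or 3 left 2 genes with a control origin each time, where 34.0%, 33.9% and 55.7% of all genes had one. The count was likewise 2 when only the 2 kb upstream of the TSS or 500 bp on each side counted, beside 45.3% and 50.6% of all genes.

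The promoter region with peaks in the largest number of lists was at Wrn. A region from −1429 to −495 bp of its TSS (negative is upstream) held peaks in all 5 lists, with fold enrichments of 12.3, 6.44 and 7.86 in controls and 10.4 and 4.18 with PhenDC3. The values of the conditions overlapped. The highest-scoring predicted G4 of Wrn (2.52), centred at −769 bp and not printed above, lay within a peak of each of the 5 lists. A second region over the Wrn TSS, from −157 to 231 bp, held peaks in control replicates 1 and 2 and in both PhenDC3 lists. The merged region spans the G4 printed above, but only the peaks of control replicate 1 and PhenDC3 replicate 1 cover it. Those of control replicate 2 and PhenDC3 replicate 2 start at 19 and 24 bp, past the G4. The gene Purg starts 315 bp away in the opposite direction, so peaks here lie near both starts.

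At Dhx9 an origin 414 to 1029 bp into the gene had fold enrichments of 4.81 and 6.54 in control replicates 1 and 2 and 6.31 and 6.19 with PhenDC3, so the PhenDC3 values fell between the controls. The Dhx36 origin lay from −1958 to −1438 bp, with fold enrichments of 3.08 and 4.27 in control replicates 1 and 3 and 3.93 and 4.71 with PhenDC3. Both regions counted as origins under both conditions, each with peaks in only 2 of the 3 controls. The control peaks at Dhx36 were weak, in the lowest 24.6% of their lists.

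Brip1 and Atrx had different peaks under the 2 conditions. At Brip1 a region from −93 to 322 bp of the TSS had a peak in control replicate 2 only (fold enrichment of 4.77) and in both PhenDC3 lists (5.89 and 3.96). The region reached 2 replicates only with PhenDC3, but since 1 control also held a peak, it was not counted as a new origin. The gene Brip1os starts 167 bp away in the opposite direction, so these peaks lie near both starts. At Atrx a region 1040 to 1308 bp into the gene had weak peaks in control replicates 2 and 3 (3.26 and 3.04) and none with PhenDC3, and peaks of that strength were in the lowest 11.7% of their lists. The lists hold 79377 to 120882 peaks in controls and 102400 and 144103 with PhenDC3. Neither difference was tested, and with 3 samples against 2 an exact test of a single region cannot reach 0.05. No peak was found within 2 kb of the TSS at Ddx11 or Blm in any list, and Rtel1, Pif1 and Dna2 had peaks of single lists there.

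**Figure D5:**
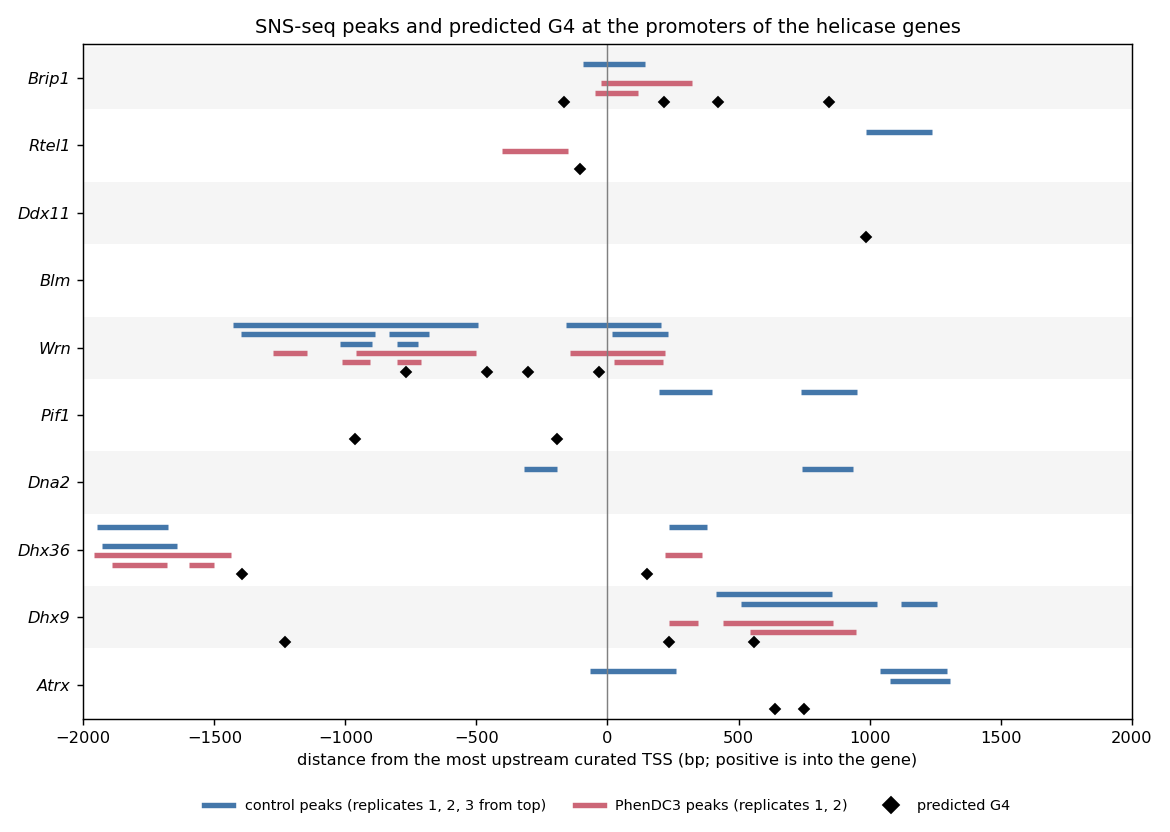
SNS-seq peaks in each control (blue, 3 rows) and PhenDC3 (red, 2 rows) list and predicted G4 (diamonds) by distance in bp from the most upstream curated TSS of each helicase gene (x axis). Wrn has peaks in all 5 lists upstream of its start, Ddx11 and Blm have none, and Atrx has control peaks only.

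Over whole genes the densest signal was at Dna2, with 8 origins in 27.206 kb, of which 3 were found in controls only. Its gene body held 9, 7 and 7 peaks in the controls and 4 and 2 with PhenDC3. Brip1, with a gene of 143.080 kb, went the other way, with 5, 4 and 1 peaks in the controls and 8 in each PhenDC3 list. These differences in peak number were not tested, and the lists differ in length. The share of all genes with such differences was not computed. The Brip1 peaks formed 3 origins, 1 of them found under both conditions. The other 2 counted as origins of a single condition and also held a peak in 1 list of the other condition. Blm had 4 origins in 80.156 kb, 2 found in controls only and 2 with PhenDC3 only. Ddx11 had 3 origins, Wrn, Dhx9 and Atrx 1 each, and Rtel1, Pif1 and Dhx36 none within the gene body.

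Promoters of 300 bases from the RefSeq annotation (GRCm38.p6) were at hand for 7 of the 10 genes (Pif1, Wrn and Ddx11 are named only). They were searched on both strands for the CCAAT box (CCAAT), the GC box (GGGCGG) and an E2F site (TTTCGCGC), which 37.4%, 35.7% and 0.323% of 32851 promoters held. Brip1 had 3 CCAAT and 3 GC boxes, Blm 2 and 3, and Atrx 4 CCAAT boxes and 0 GC boxes. Dhx9 had 2 GC boxes, Rtel1 and Dhx36 1 each, and Dna2 had neither motif. The E2F letters were in none of the 7 promoters. The promoters of Brip1 and Atrx are shown because their SNS-seq peaks differed and both hold several CCAAT boxes. They are read along the coding strand with motif letters of either strand in capitals, and in Brip1 1 CCAAT box on the reverse strand overlaps a GC box.
Brip1, chr11:86201144-86201443, minus strand: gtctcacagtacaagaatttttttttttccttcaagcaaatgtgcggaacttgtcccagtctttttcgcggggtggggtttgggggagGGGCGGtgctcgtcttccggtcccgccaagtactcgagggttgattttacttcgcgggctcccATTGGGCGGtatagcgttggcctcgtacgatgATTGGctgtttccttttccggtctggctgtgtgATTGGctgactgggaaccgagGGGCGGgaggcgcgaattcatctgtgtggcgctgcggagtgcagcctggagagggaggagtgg
Atrx, chrX:105929323-105929622, minus strand: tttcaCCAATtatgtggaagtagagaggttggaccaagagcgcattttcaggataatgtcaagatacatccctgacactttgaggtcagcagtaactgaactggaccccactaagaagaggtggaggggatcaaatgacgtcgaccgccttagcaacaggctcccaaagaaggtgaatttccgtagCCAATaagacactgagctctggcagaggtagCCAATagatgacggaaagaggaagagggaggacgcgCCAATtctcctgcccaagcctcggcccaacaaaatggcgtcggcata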

How the data were processed

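RNA-seq libraries came from total RNA of 3 control and 3 PhenDC3 samples (stranded mRNA kit). The authors mapped reads with TopHat2 2.1.1 and Bowtie2 2.2.9 and deposited raw read counts per gene from HTSeq 0.6.1p1. The annotation and strand setting of the counting are not given in the sources used here. For SNS-seq, per the submitters' processing notes and the study's methods, the authors used Bowtie2 on mm10 and MACS2 2.1.0 on each replicate against an RNase-treated library. The deposited lists hold a fold enrichment (a ratio) and a −log10 p-value by the authors, the latter used only to rank peaks. A table of normalised counts and a DESeq2 table of the authors' own comparison (fold changes and p-values) were not used.

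Groups came from the labels. The 6 samples were compared with edgeR 4.0.16 (R 4.3.3; relative log expression, filterByExpr, robust quasi-likelihood test, Benjamini-Hochberg adjustment over 13972 genes). DESeq2 1.42.0, TMM, other filters, a replicate block and leaving out each replicate were alternatives, and the length-adjusted offsets (lowess span of 0.3 on log2(CPM + 1)) were added after the data had been seen. The test scripts were checked on simulated data. Exon lengths, TSS and gene positions were from curated RefSeq of GRCm38.p6. SNS-seq regions were merged where peaks overlapped by at least 1 bp, and Quadparser needed runs of 3 G and loops of 1 to 7 bases. All 10 helicase genes are named. Of each other list every gene was counted, up to 4 called genes with the largest change were named, and others beside a helicase result or, as with Ncl, after their values had been seen. The helicase genes and all lists were chosen with earlier results of these data known. One partner gene and one G4 sequence are not reported here.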

Additional observations from a re-analysis of the deposited data

How the results depend on the processing

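The number of helicase genes called higher was 0, and 2 with DESeq2, 1 without a filter on low counts, 2 with the replicate block and 0 to 2 when 1 replicate was left out. The number called lower was 0, and 1 with TMM or DESeq2, 5 with the block, 5 with length-adjusted offsets and 0 to 1 when 1 replicate was left out. The sign of Blm turned without control replicate 3 (0.17) and without PhenDC3 replicate 2 (0.07), neither called, with −0.23 to 0.17 over the replicates left out, and no other helicase gene changed sign under the 12 alternatives. With 1 replicate left out, all genes gave 1709 to 2689 higher and 1623 to 2727 lower, related helicases 1 to 2 higher, partners 1 to 3 higher and 4 to 8 lower, and G4-binding proteins 0 to 1 higher. Related helicases called lower were 2 with the block and 4 with length-adjusted offsets. Samples of the same number deviated together with correlations of 0.0945, 0.6634 and 0.5197 over 13972 genes, and 5 of the 6 samples correlated best with their own number. Column names of the counts also carry leading numbers that run consecutively from the control to the PhenDC3 sample of each replicate. What these leading numbers mean is not stated. The replicate numbers were not taken to pair the samples. The labels name no batch or culture that same-numbered samples share, and 1 of the 3 correlations was below 0.1. That correlation of 0.0945 lay close to this limit, and whether the samples were paired is not known. With the replicate block, 3797 genes were called higher, partners gave 3 higher and G4-binding proteins 1, and the helicase calls were Dhx9 and Atrx higher and Brip1, Rtel1, Ddx11, Wrn and Pif1 lower. The number of helicase promoters with a control origin was 4, and 2 with 2 kb upstream only, with 500 bp on each side, with the stronger part of each list, and 2 to 4 when 1 replicate was left out. The causes of these differences were not tested. The depth of the SNS-seq samples is unknown, and 3 RNA-seq samples a group limit the precision of each fold change.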
